A study of Mus musculus with 6 samples.

Results

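The glutathione transferase genes described here are 10 genes chosen by name, Gsta1, Gsta2, Gsta3, Gsta4, Gstm1, Gstm3, Gstp1, Gsto1, Gstt1 and Mgst1, out of 53953 rows listed for each library. All 10 names matched 1 Ensembl identifier each. They were measured by RNA sequencing in small-intestinal organoids, crypt-derived epithelial cultures, grown in Matrigel at passage 3 to 5 from C57BL/6 wt mice, out of crypts of the proximal small intestine. The arachidonic acid group was 3 libraries from organoids given this omega-6 fatty acid dissolved in 0.1% ethanol, for 3 days, with passaging afterwards. The vehicle group was 3 libraries from organoids given 0.1% ethanol alone. RNA of both groups was extracted at day 3 of the new passage, and the dose of the fatty acid is not stated in the labels.

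Glutathione transferases join the tripeptide glutathione to reactive, electron-poor molecules, among them aldehydes and epoxides made when polyunsaturated fatty acids are oxidised. The soluble enzymes fall into classes named by Greek letters, alpha, mu, pi, theta and omega among those listed here, and the membrane-bound ones belong to the MAPEG family, which also holds enzymes of leukotriene and prostaglandin synthesis. In the small intestine they are known as part of the first line against dietary toxins, and several are known targets of NRF2, a transcription factor that responds to electrophiles.

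The values are FPKM, fragments scaled by gene length and by library depth. Spacing of the low values implied 50.8, 35.6 and 48.6 M fragments in arachidonic acid replicates 1, 2 and 3 and 37.4, 36.6 and 38.6 M in vehicle replicates 1, 2 and 3. A member had between 174 and 124209 fragments in any library, with Gstp1 the lowest and Gstm1 the highest. On the first principal component of all tested genes, which held 85.2% of the variance, arachidonic acid replicates 1, 2 and 3 lay at 10.2, 58.1 and 54.6 and the vehicle libraries between -41.6 and -40.4, so arachidonic acid replicate 1 stood apart from its own group. Markers of the epithelium were abundant, with 4997 to 5859 summed FPKM over 7 genes in arachidonic acid libraries and 3485 to 3633 in vehicle libraries. They did not move together. Krt8, Krt18, Krt19 and Vil1 were higher in every treated library than in any vehicle library, Epcam was lower, and the ranges of Cdh1 and Cldn7 overlapped. By mean Krt8 was at 1632 FPKM with arachidonic acid and 759 with vehicle, and Epcam at 361 and 548. Fibroblast markers, with Lum at 0 throughout, reached at most 0.326 FPKM in any library and endothelial markers, with Cdh5 and Emcn at 0, at most 0.318. Immune markers other than Cd68 reached at most 0.455 FPKM. Cd68, a lysosomal protein of macrophages, was at 3.52, 23.9 and 16.8 FPKM in the arachidonic acid libraries and 1.53 to 2.14 in the vehicle libraries.

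Of the 10 transferase genes, 9 were higher with arachidonic acid and none lower, where 20.8% of all 12913 tested genes were called higher and 19.4% lower. The gene that did not pass was Gstt1. The test was limma on log2(FPKM + 1) over all genes whose mean reached 1 FPKM, with two-sided p-values adjusted by Benjamini-Hochberg and a threshold of 0.05. All 10 members passed the filter, each also by its vehicle mean alone. The median log2 fold change, arachidonic acid minus vehicle, was 1.38 over the 10 members and -0.03 over all tested genes. The groups did not overlap for any of the 10 members, with 9 of them higher and 1 lower, where 27.6% of tested genes were higher without overlap and 27.5% lower. At an unadjusted p under 0.05 in limma 1 member, Gstt1, was lower, and with limma-voom none was called lower. The count of 9 was the same in each of the 15 other settings tried, among them the one without arachidonic acid replicate 1. These are bulk samples, in which fewer cells of a type and less RNA per cell cannot be told apart.

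**Figure D1:**
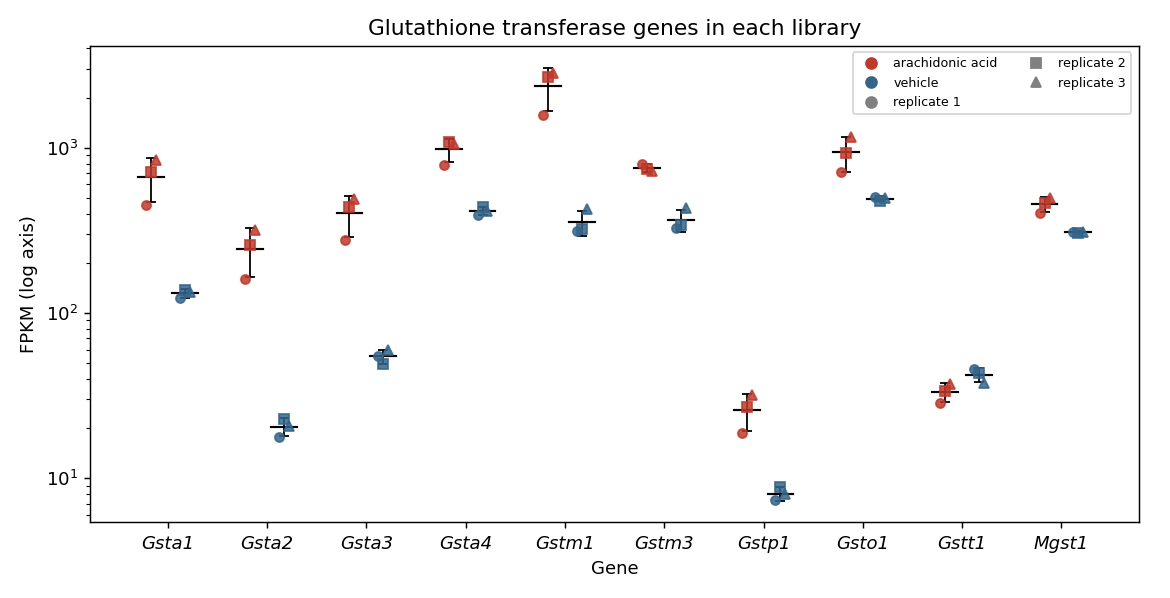
FPKM of the 10 transferase genes (log axis) in 3 arachidonic acid libraries (red, left of each pair) and 3 vehicle libraries (blue, right), with marker shapes for the replicates, black lines for the mean and bars for the SD. For 9 genes all red points lie above all blue points, and for Gstt1 all lie below.

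The alpha class, whose enzymes conjugate lipid peroxidation products and also reduce lipid hydroperoxides, held the 2 largest fold changes among the members, those of Gsta2 and Gsta3. Gsta2 (ENSMUSG00000057933) was at 160, 258 and 318 FPKM in the arachidonic acid libraries, against 17.8, 22.8 and 20.7 FPKM in the vehicle libraries. Its log2 fold change was 3.47 (SE 0.24, adjusted p = 0.00051), the largest of the 10, and the ratio of the group means was 12.01. Every arachidonic acid library stood well above every vehicle library, and replicate 1 was the lowest of the treated ones.

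Gsta3 (ENSMUSG00000025934), an alpha enzyme known in mice for conjugating the epoxide of aflatoxin, was at 276, 440.3 and 487 FPKM with arachidonic acid and at 54.7, 49.4 and 59.99 FPKM with vehicle. Its log2 fold change was 2.81 (SE 0.21, adjusted p = 0.00058). Gsta1 (ENSMUSG00000074183) was at 448, 715 and 839 FPKM with arachidonic acid and at 122.5, 139 and 134 FPKM with vehicle, a log2 fold change of 2.29 (SE 0.22, adjusted p = 0.0011). Both genes were thus several times higher in each treated library than in any vehicle library.

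Gsta4 (ENSMUSG00000032348), the alpha enzyme known for its preference for long-chain hydroxyalkenals, products of omega-6 fatty acid peroxidation, had the smallest fold change of the class and the highest level. It was at 791, 1081 and 1058 FPKM with arachidonic acid, against 391, 437 and 412 FPKM with vehicle. The log2 fold change was 1.23 (SE 0.13, adjusted p = 0.0014), with a 95% confidence interval of 0.92 to 1.53 that lies below the intervals of Gsta1, 1.77 to 2.81, Gsta2, 2.90 to 4.05, and Gsta3, 2.32 to 3.31. The differences between these fold changes were not tested.

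Gsta1 and Gsta2 are copies that can share reads, and so are the neighbouring alpha genes Gm3776 and Gm10639 on chromosome 9, which are no members. Of the stretches of 50 bases in the GENCODE M21 transcripts of Gsta1, 89.7% also occur in a transcript of another gene, 82.9% in Gm3776 and 44.5% in Gsta2. For Gsta2 47.4% occur elsewhere, while for Gsta3 and Gsta4 none do. How reads matching several places were counted is not stated in the labels, so the split between these copies is uncertain. Gm3776 was at 205 ± 51.9 FPKM with arachidonic acid and 39.7 ± 0.369 FPKM with vehicle (SD over n = 3 libraries of each group, also below), a log2 fold change of 2.31 (SE 0.18, adjusted p = 0.00062). Gm10639 was at 48.1 ± 12.4 FPKM with arachidonic acid and 11.9 ± 1.47 FPKM with vehicle, a log2 fold change of 1.90 (SE 0.20, adjusted p = 0.0013). With Gsta1 and Gsta2 summed as 1 gene the log2 fold change was 2.53 (SE 0.22, adjusted p = 0.00092), and with all 4 copies summed it was 2.47 (SE 0.21, adjusted p = 0.00088). The copies differ in length, so summed FPKM still depends in part on the split, and reads left out at counting are not restored by a sum. Gsta1 made up 72.5% to 73.7% of the pair Gsta1 and Gsta2 in the arachidonic acid libraries and 85.9% to 87.3% in the vehicle libraries, without overlap.

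The copies are alike upstream of the gene as well, which is why 3 of their windows are printed here. The sequences are the 250 bases before the annotated start, from RefSeq with build GRCm38.p6, 5′ to 3′ on the strand of the gene. Capitals in Gm3776 and Gsta2 mark bases that, within the stretch aligned to Gsta1, differ from its base or have none opposite them. Gsta1 lies at chr9:78230419-78230668 on the plus strand, Gm3776 at chr9:78256879-78257128 on the plus strand and Gsta2 at chr9:78347146-78347395 on the minus strand.
Gsta1: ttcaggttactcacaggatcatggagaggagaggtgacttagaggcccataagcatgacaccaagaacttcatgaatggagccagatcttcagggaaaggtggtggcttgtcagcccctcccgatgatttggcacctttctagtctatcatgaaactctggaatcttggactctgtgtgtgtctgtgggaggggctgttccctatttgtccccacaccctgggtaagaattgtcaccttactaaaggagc
Gm3776: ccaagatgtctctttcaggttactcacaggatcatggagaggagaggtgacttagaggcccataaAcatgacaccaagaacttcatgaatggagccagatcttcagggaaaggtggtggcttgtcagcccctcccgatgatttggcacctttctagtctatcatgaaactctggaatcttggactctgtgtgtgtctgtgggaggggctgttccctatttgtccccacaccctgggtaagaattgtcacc
Gsta2: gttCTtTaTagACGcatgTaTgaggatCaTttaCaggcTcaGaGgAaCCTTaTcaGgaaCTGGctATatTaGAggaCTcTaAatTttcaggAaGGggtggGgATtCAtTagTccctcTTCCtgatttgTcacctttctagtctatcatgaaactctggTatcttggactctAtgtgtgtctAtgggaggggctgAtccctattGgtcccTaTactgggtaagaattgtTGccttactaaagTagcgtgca
Over the 237 columns of the alignment of Gsta1 and Gm3776, leaving out overhanging ends, 236 bases were identical, or 99.6%, with 1 mismatch. Gsta1 and Gsta2 were identical in 184 of 251 columns, or 73.3%, and most of the differing bases lie in the distal part of the window, while the part nearer the start is similar.

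Both mu class members rose. Gstm1 (ENSMUSG00000058135), the main mu enzyme of mouse liver, was the most abundant member with arachidonic acid, at 1578, 2689 and 2844 FPKM, against 314, 324 and 423 FPKM with vehicle. Its log2 fold change was 2.71 (SE 0.24, adjusted p = 0.00092) and the ratio of the means was 6.70. Gstm3 (ENSMUSG00000004038), another mu gene on chromosome 3, was at 802, 745 and 723 FPKM with arachidonic acid and at 325, 339 and 431 FPKM with vehicle, a log2 fold change of 1.06 (SE 0.12, adjusted p = 0.0015). The vehicle levels of the pair were alike, at 354 ± 60.5 FPKM for Gstm1 and 365 ± 57.7 FPKM for Gstm3, and with arachidonic acid Gstm1 was above Gstm3 in all 3 libraries. Of the 50-base stretches of Gstm1 19.9% occur in another gene, 14.9% in the pseudogene Gstm2-ps1 and 8.60% in Gstm3. Of those of Gstm3 28.8% occur elsewhere, 16.0% in Gm8834, so the values of both genes are uncertain where reads were shared. Gstm2-ps1 itself was at 106 ± 31.1 FPKM with arachidonic acid and 19.1 ± 2.37 FPKM with vehicle.

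Gstp1 (ENSMUSG00000060803), the pi enzyme, which is also known to bind the stress kinase JNK, was the lowest of the 10 genes in both groups. It was at 18.8, 27.0 and 31.7 FPKM with arachidonic acid, against 7.32, 8.82 and 8.02 FPKM with vehicle. The log2 fold change was 1.54 (SE 0.18, adjusted p = 0.0020). Gstp2, its near copy, shares 51.0% of the 50-base stretches of Gstp1, and Gstp1, Gstp2 and Gstp3 summed gave a log2 fold change of 1.56 (SE 0.22, adjusted p = 0.0030). Gstp3 was at 0 in every library, so this was the sum of Gstp1 and Gstp2. The pseudogene Gstp-ps, which shares 37.3% of the stretches of Gstp1, was not in the sum. It was at 2.59 ± 0.728 FPKM with arachidonic acid and 0.680 ± 0.242 FPKM with vehicle.

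Gsto1 (ENSMUSG00000025068), an omega enzyme that reduces dehydroascorbate and removes glutathione from proteins, was the most abundant member with vehicle. It was at 713, 933 and 1166 FPKM with arachidonic acid and at 505, 473 and 496 FPKM with vehicle, a log2 fold change of 0.90 (SE 0.17, adjusted p = 0.0075). The treated libraries were spread widely, with an SD of 226 FPKM against 16.4 FPKM in the vehicle libraries. Mgst1 (ENSMUSG00000008540), the microsomal transferase, a membrane enzyme that also reduces lipid hydroperoxides, was at 405, 463 and 499.7 FPKM with arachidonic acid and at 311, 303 and 311 FPKM with vehicle. Its log2 fold change was 0.56 (SE 0.09, adjusted p = 0.0043), the smallest of the 9 that rose.

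Gstt1 (ENSMUSG00000001663), a theta enzyme known for its action on small halogenated molecules, was at 28.6, 33.8 and 37.2 FPKM with arachidonic acid and at 45.5, 43.4 and 37.7 FPKM with vehicle. The 3 treated libraries lay below the vehicle libraries, the closest pair being 37.2 FPKM in arachidonic acid replicate 3 and 37.7 FPKM in vehicle replicate 3. The log2 fold change was -0.34 (SE 0.12, 95% confidence interval -0.62 to -0.06, adjusted p = 0.055), which did not pass. With quantile normalization it passed, with an adjusted p of 0.045. It also passed when arachidonic acid replicate 1 was left out, at a log2 fold change of -0.24 and an adjusted p of 0.049, and the adjusted p over all other settings was at most 0.17.

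The order of levels, which FPKM allows since it is per length, changed with treatment. The places of Gsta1, Gsta2, Gstm1, Gstm3 and Gstp1 are uncertain where reads were shared with other genes, and so are their shares of the summed level. With arachidonic acid it ran Gstm1, Gsta4, Gsto1, Gstm3, Gsta1, Mgst1, Gsta3, Gsta2, Gstt1 and Gstp1 by group mean. Gstm1 stood apart from Gsta4, and Gsta2 from Gstt1, while the ranges over the 3 libraries overlapped for every other pair of neighbours. With vehicle it ran Gsto1, Gsta4, Gstm3, Gstm1, Mgst1, Gsta1, Gsta3, Gstt1, Gsta2 and Gstp1. There only the ranges of Gsta4 and Gstm3 and of Gstm3 and Gstm1 overlapped between neighbours. Gstm1 was thus below Gsto1, Gsta4 and Gstm3 by mean in the vehicle group and above all other members in the treated group, and Gsta2 was below Gstt1 with vehicle and above it with arachidonic acid in every library.

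The 10 genes summed to 5220, 7385 and 8003 FPKM in the arachidonic acid libraries and to 2094, 2139 and 2335 FPKM in the vehicle libraries. That was 0.691% to 1.06% of all FPKM of a library with arachidonic acid and 0.262% to 0.300% with vehicle. Gstm1 supplied 34.1% ± 3.34 of the sum with arachidonic acid and 16.1% ± 1.77 with vehicle. The share of Gsta2 was 3.51% ± 0.454 with arachidonic acid and 0.934% ± 0.116 with vehicle. Gsto1, although higher in level, supplied a smaller share with arachidonic acid, 13.6% ± 0.966, against 22.5% ± 1.47 with vehicle. So did Mgst1, with 6.76% ± 0.862 with arachidonic acid and 14.1% ± 0.759 with vehicle. Gstp1 supplied about the same share in both groups, 0.374% ± 0.0192 with arachidonic acid and 0.368% ± 0.0380 with vehicle.

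**Figure D2:**
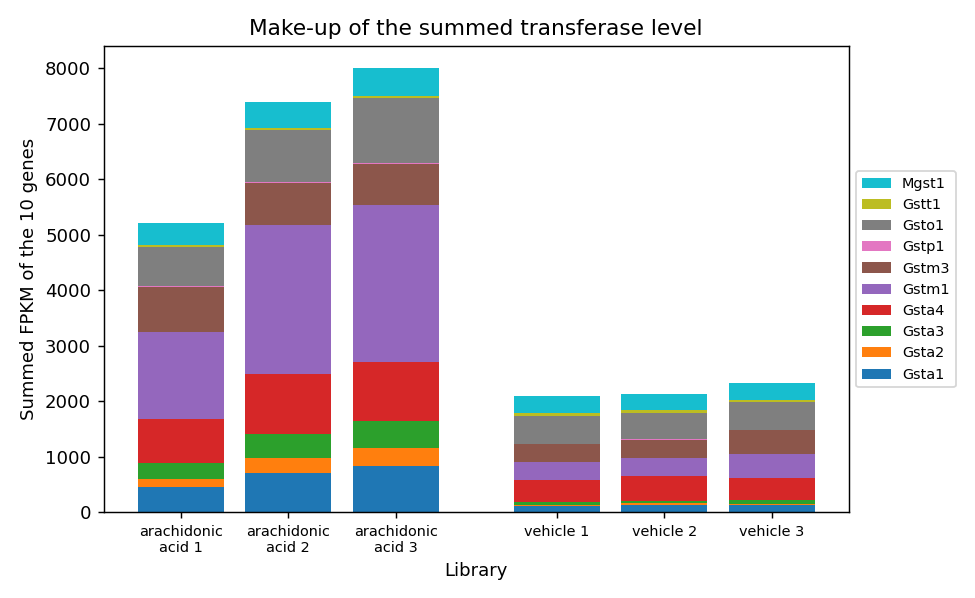
Summed FPKM of the 10 transferase genes in each arachidonic acid library (left) and each vehicle library (right), split by gene. The sums are 5220 to 8003 FPKM with arachidonic acid and 2094 to 2335 FPKM with vehicle, and the Gstm1 segment (purple) widens most.

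Arachidonic acid replicate 1 took an intermediate place for most members. Its position is given on a linear FPKM scale on which the vehicle mean is 0 and the mean of the other treated libraries is 1. It was the lowest of the treated libraries for 9 of the 10 genes. The position was 0.40 for Gsto1 and between 0.49 and 0.58 for Gsta1, Gsta2, Gsta3, Gsta4, Gstm1, Gstp1 and Mgst1. Gstm3 was the exception among the genes that rose, with replicate 1 the highest of the treated libraries at a position of 1.19. For Gstt1 the position was 2.02, beyond the other treated libraries. Without this library the log2 fold changes of the 9 genes that rose were between 0.64, for Mgst1, and 3.75, for Gsta2, and all 9 were called.

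**Figure D3:**
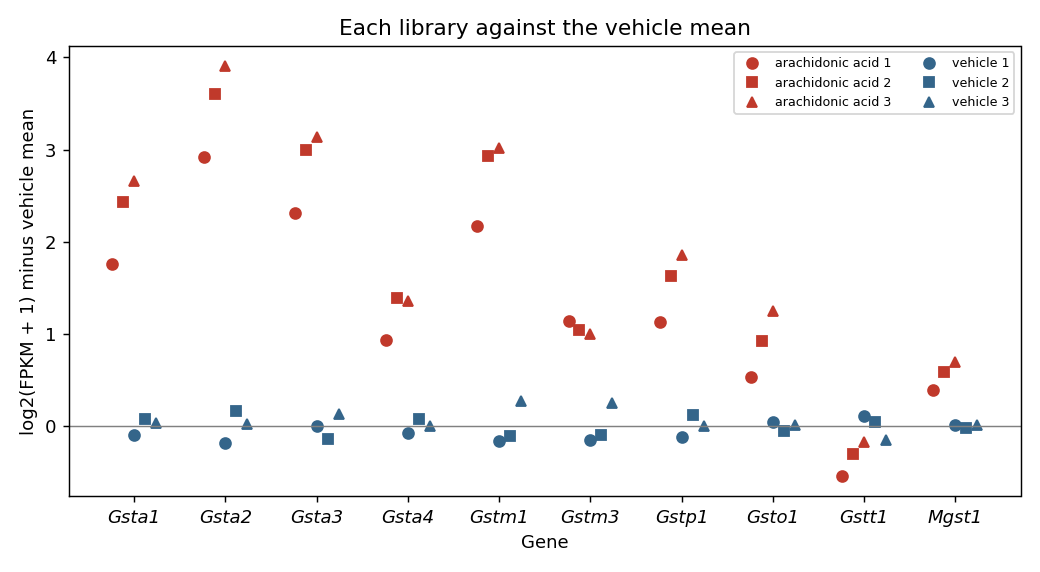
Difference of each library from the vehicle mean, in log2(FPKM + 1), for the 10 transferase genes, with arachidonic acid libraries in red and vehicle libraries in blue and marker shapes for the replicates. Red circles, arachidonic acid replicate 1, are the lowest red points for 9 genes and the highest for Gstm3.

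The rest of the transferase and MAPEG families was described from a list of 22 genes, of which 20 were matched and 16 tested. The names without a match were Gsta5 and Gsta13, and the alpha genes Gm3776 and Gm10639 described above are not counted in the list. Of the 16, 11 were higher and 2 lower with arachidonic acid, with a median log2 fold change of 1.07, and 3 of the 16, Gsto2, Ptges and Ltc4s, passed the filter only through the treated libraries. Over all tested genes 20.8% were higher and 19.4% lower. The count of higher genes in the list was 7 of 14 tested without arachidonic acid replicate 2 and 6 of 15 without arachidonic acid replicate 3. It was 7, 8 and 7 without vehicle replicates 1, 2 and 3. In these runs 13.3% to 15.1% of all tested genes were higher. The count was 12 without arachidonic acid replicate 1, where 27.5% of all tested genes were higher. It was 7 with no filter on low values, where 9.11% were higher. No gene of the list was called lower by limma when any 1 library other than arachidonic acid replicate 1 was left out.

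Mgst3, a microsomal transferase and peroxidase, had the smallest p of this list, with 297 ± 16.5 FPKM with arachidonic acid and 179 ± 7.999 FPKM with vehicle (log2 fold change 0.73, SE 0.07, adjusted p = 0.0010). Gstm4 rose to 62.3 ± 21.7 FPKM with arachidonic acid, against 11.1 ± 0.707 FPKM with vehicle (log2 fold change 2.32, SE 0.26, adjusted p = 0.0016). Gstk1, the kappa enzyme of mitochondria and peroxisomes, was at 42.4 ± 10.99 FPKM with arachidonic acid and 13.03 ± 0.427 FPKM with vehicle (log2 fold change 1.59, adjusted p = 0.0019). Gstt2, a theta gene, was at 83.8 ± 25.6 FPKM with arachidonic acid and 32.2 ± 1.93 FPKM with vehicle (log2 fold change 1.302, adjusted p = 0.0062). Gstt3, the remaining theta gene tested, was also called higher, by 0.61 on the log2 scale with an adjusted p of 0.027. It missed the threshold with no filter and when arachidonic acid replicate 2 or 3 or vehicle replicate 1 or 3 was left out.

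Of the 7 mu genes, Gstm1 and Gstm3 included, 6 were higher and Gstm7 was not called, at 28.6 ± 2.70 FPKM with arachidonic acid and 28.3 ± 1.11 FPKM with vehicle (log2 fold change 0.01, 95% confidence interval -0.19 to 0.21, adjusted p = 0.94). The sign of that value was negative with quantile normalization. Gstm5 was at 31.9 ± 2.85 FPKM with arachidonic acid and 24.2 ± 2.57 FPKM with vehicle (log2 fold change 0.39, adjusted p = 0.025), a call lost without arachidonic acid replicate 3 or vehicle replicates 2 or 3 and with no filter (adjusted p = 0.054 to 0.081). The 2 genes called lower were Gstz1, maleylacetoacetate isomerase of tyrosine breakdown, with a log2 fold change of -0.36 and an adjusted p of 0.029, and Gstcd, a protein with a transferase-like domain, with -0.39 and 0.016. Gstt3, Gstm5, Gstm7, Gstz1 and Gstcd were named after their values were seen. Both calls were lost without any 1 library other than arachidonic acid replicate 1, with adjusted p of 0.0702 to 0.0958 for Gstz1 and 0.0526 to 0.0641 for Gstcd. The call of Gstz1 was also lost with TPM rescaling (adjusted p = 0.052), with no filter (0.059) and with the replicate number as a block (0.056).

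**Figure D4:**
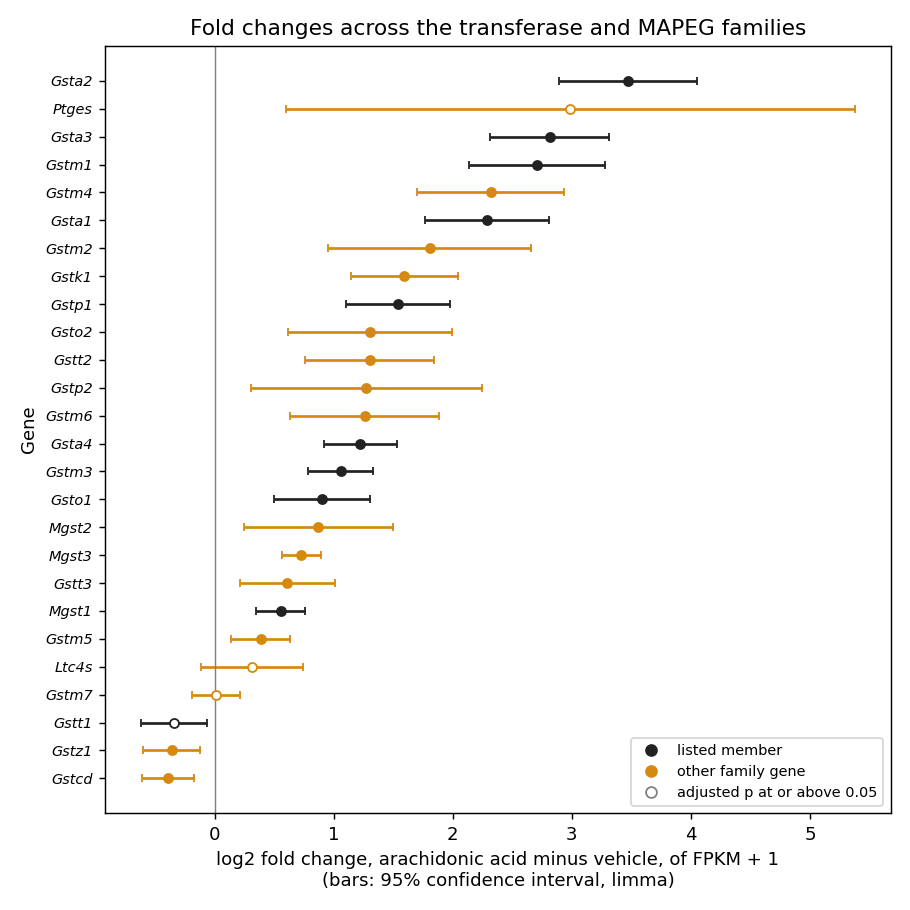
Log2 fold change, arachidonic acid minus vehicle, of FPKM + 1 with its 95% confidence interval from limma for the 10 members (black) and the 16 other family genes tested (orange), open where the adjusted p did not pass. Gsta2 has the largest value, 3.47, and Gstcd the lowest, -0.39.

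Genes that supply glutathione were described from a list of 23, all tested, of which 12 were higher and 1 lower, with a median log2 fold change of 0.85. Without arachidonic acid replicate 1, 16 were higher and 4 lower, and over all tested genes 3554 were higher and 4192 lower then. The count of higher genes was 9 without any other single library, where 13.3% to 15.1% of all tested genes were higher. With no filter on low values it was also 9, where 9.11% of all tested genes were higher. Slc7a11, the cystine carrier that brings in the limiting amino acid, was at 86.2, 213 and 246 FPKM with arachidonic acid and at 6.09, 5.68 and 7.85 FPKM with vehicle (log2 fold change 4.48, SE 0.38, adjusted p = 0.00083). Gclc, the catalytic subunit of the first enzyme of glutathione synthesis, was at 262, 729 and 904 FPKM with arachidonic acid and at 57.4, 57.4 and 62.1 FPKM with vehicle (log2 fold change 3.22, SE 0.43, adjusted p = 0.0027). It is outside the rule for named genes and was chosen after its values were seen. Me1, G6pdx and Pgd, which make NADPH for the recycling of glutathione, rose by 3.49, 1.32 and 1.06 on the log2 scale. The gene called lower, also named after its values were seen, was Cth, which makes cysteine from cystathionine, at -0.66 (adjusted p = 0.016). That call was lost without vehicle replicate 1 or 3 (adjusted p = 0.065 and 0.059).

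Conjugates leave the cell through ABC exporters and are trimmed to mercapturates by surface and cytosolic peptidases. Of 16 tested genes of these steps, from a list of 18, 7 were higher and 1 lower, with a median log2 fold change of 0.17. When arachidonic acid replicate 1 was left out these counts became 7 and 4. The shares of all tested genes were 20.8% higher and 19.4% lower with all libraries. Without that replicate they were 27.5% higher and 32.4% lower. Abcc4 was at 30.6, 81.8 and 96.9 FPKM with arachidonic acid and at 6.59, 4.92 and 5.58 FPKM with vehicle (log2 fold change 3.25, SE 0.40, adjusted p = 0.0022). Abcc1 and Abcc3 rose by 2.23 and 2.32 on the log2 scale. Abcc2, the apical exporter, was at 319, 333 and 325 FPKM with arachidonic acid and at 142, 163 and 175 FPKM with vehicle (log2 fold change 1.03, SE 0.09, adjusted p = 0.00083). The gene called lower, named after its values were seen, was Anpep, an apical aminopeptidase that is also an enterocyte gene, at -1.31 (adjusted p = 0.015). That call was lost without vehicle replicate 2 or 3 (adjusted p = 0.054 and 0.055), and no gene was called lower then.

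Of 14 genes that clear aldehydes, with or beside glutathione, 11 were higher and 1 lower, with a median log2 fold change of 1.06. Among these, Aldh3a1 passed the filter only through the treated libraries and was counted as higher. The shares of all tested genes were 20.8% higher and 19.4% lower. In other settings 9 to 12 of the 14 were higher and 1 lower. The count of higher genes was 9 without any single library other than arachidonic acid replicate 1, where 13.3% to 15.1% of all tested genes were higher. It was also 9 with no filter, where 9.11% were higher. Akr1b8, Aldh1a1, Aldh3a2 and Akr1b3, reductases and dehydrogenases of aldehydes, rose by 6.97, 2.52, 1.95 and 1.01 on the log2 scale. The gene called lower, named after its values were seen, was Adh5, which oxidises the glutathione adduct of formaldehyde, at -0.57 (adjusted p = 0.0072). Of 20 NRF2 regulators and targets 17 were higher and none lower, with a median log2 fold change of 1.64, and in other settings 15 to 17 were higher and 0 to 1 lower. In those settings 9.11% to 27.5% of all tested genes were higher and 7.46% to 32.4% lower. Among the 17, Ces1g passed the filter only through the treated libraries. The 3 genes not called were Bach1, Txn1 and Ugt1a6a. Bach1, a repressor of NRF2 targets, was at -0.36 on the log2 scale with an unadjusted p under 0.05 (adjusted p = 0.057). In the list 1 gene was called lower with quantile normalization, with median-of-ratios scaling and without arachidonic acid replicate 1. Keap1, another regulator, named after its values were seen, was higher by 0.32 (adjusted p = 0.022). Its adjusted p in limma reached 0.085 in other settings. Cbr3, Srxn1 and Osgin1 rose by 2.92, 2.93 and 1.68 on the log2 scale, and Slc7a11, Gclc, Gclm and Abcc3 stand in this list as well as in one above. Nfe2l2, which encodes NRF2 and was named after its values were seen, was at 126 ± 7.12 FPKM with arachidonic acid and 81.2 ± 6.25 FPKM with vehicle (log2 fold change 0.63, SE 0.08, adjusted p = 0.0024).

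**Figure D5:**
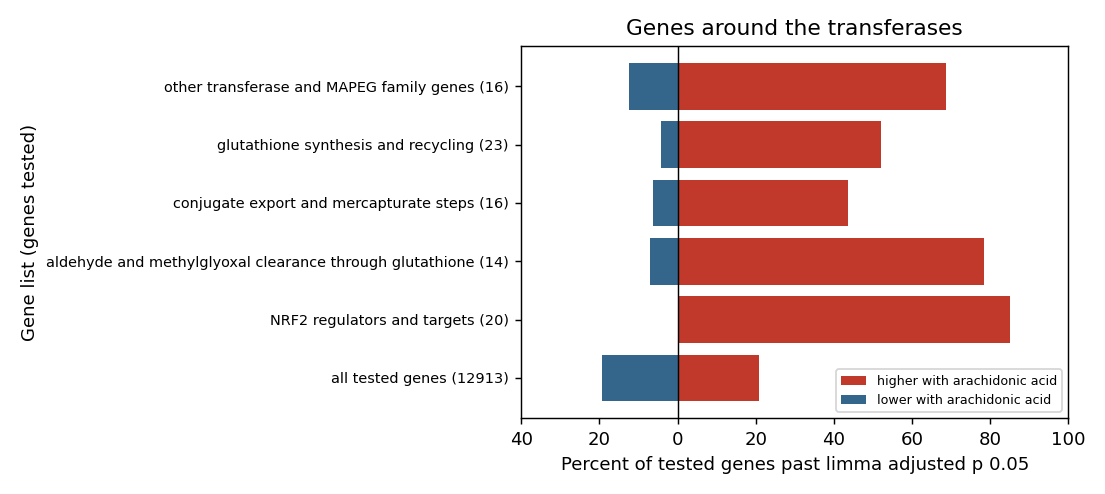
Percent of tested genes called higher (red, to the right) and lower (blue, to the left) with arachidonic acid at a limma adjusted p under 0.05, for 5 lists of genes around the transferases and for all tested genes, with the number tested in brackets. All tested genes are at 20.8% higher and 19.4% lower.

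Upstream windows were searched for the antioxidant response element, the sequence NRF2 is known to bind, since most members moved together. The letters searched were TGACNNNGC and TGAGNNNGC, on both strands, in the 250 bases before each RefSeq start. Of 32851 such windows in the mouse table, 10.2% hold the first, 14.4% the second and 23.0% either. A window was found for 9 of the 10 members, in 11 windows, and not for Gsta4. Matches were in 4 of the 11 windows, those of Gsta3 and Mgst1 for the first motif and of Gstp1 and Gstt1 for the second. The other window of Mgst1 held none, and Gstt1 is the member that was not called higher. These 4 windows are printed with the matches in capitals, 5′ to 3′ on the strand of the gene in GRCm38.p6. Gsta3 lies at chr1:21240335-21240584 on the plus strand, Mgst1 at chr6:138140277-138140526 on the plus strand, Gstp1 at chr19:4037913-4038162 on the minus strand and Gstt1 at chr10:75797732-75797981 on the minus strand.
Gsta3: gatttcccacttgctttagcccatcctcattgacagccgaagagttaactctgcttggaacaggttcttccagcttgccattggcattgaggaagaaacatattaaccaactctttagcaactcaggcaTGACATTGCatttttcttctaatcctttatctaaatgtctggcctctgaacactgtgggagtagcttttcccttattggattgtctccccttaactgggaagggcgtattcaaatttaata
Mgst1: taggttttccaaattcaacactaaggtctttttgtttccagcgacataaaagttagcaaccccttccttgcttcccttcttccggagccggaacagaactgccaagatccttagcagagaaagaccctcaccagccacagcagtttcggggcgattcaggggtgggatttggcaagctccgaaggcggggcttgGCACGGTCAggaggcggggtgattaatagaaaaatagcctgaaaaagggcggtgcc
Gstp1: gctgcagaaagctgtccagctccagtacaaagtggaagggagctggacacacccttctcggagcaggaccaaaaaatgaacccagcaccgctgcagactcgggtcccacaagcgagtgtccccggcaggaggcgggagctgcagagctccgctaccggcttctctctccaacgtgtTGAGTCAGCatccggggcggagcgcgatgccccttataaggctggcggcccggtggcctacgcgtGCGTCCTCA
Gstt1: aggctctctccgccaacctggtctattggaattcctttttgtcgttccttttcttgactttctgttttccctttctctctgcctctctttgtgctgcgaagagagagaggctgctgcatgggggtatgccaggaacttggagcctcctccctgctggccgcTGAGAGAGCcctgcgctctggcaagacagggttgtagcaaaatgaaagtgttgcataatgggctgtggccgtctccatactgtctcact
The match in Gsta3 began 121 bases before the start and that in Mgst1, on the opposite strand, 56 bases before it. Gstp1 held 2 matches, of which the one beginning 74 bases before the start also contains TGAGTCA, the letters of the AP-1 site. The windows of Gsta1, Gsta2, Gstm1, Gstm3 and Gsto1 held none. Binding of NRF2 at these genes was not tested. A match is a stretch of letters and not a measured binding site, and no match says only that these letters are not in this window.

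Outside the lists, the genes whose profile over the 6 libraries was most like that of Gsta2, the member with the smallest p, were Depp1, Aqp3 and Syt16. The measure was the root mean square difference of mean-centred log2(FPKM + 1), at 0.140, 0.161 and 0.169. Aqp3, an aquaporin that carries water and glycerol, was at 10.1, 14.6 and 15.9 FPKM with arachidonic acid and at 0.247, 0.227 and 0.192 FPKM with vehicle. Depp1 was at 12.1, 23.7 and 23.1 FPKM with arachidonic acid and at 0.871, 1.05 and 0.742 FPKM with vehicle. All 3 genes were under 1 FPKM in the vehicle group by mean and passed the filter only through the treated libraries, so their likeness to Gsta2 depends on the pseudocount of 1. With a pseudocount of 0.1 the log2 fold changes were 4.27 for Depp1, 5.38 for Aqp3 and 5.94 for Syt16, against 3.53 for Gsta2.

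Markers of the differentiated cell types moved beside the transferases. Over all tested genes 19.4% were called lower. Of 6 enteroendocrine markers all 6 were lower, with 102 to 143 summed FPKM in arachidonic acid libraries and 551 to 658 in vehicle libraries. Of 7 goblet markers 5 were tested, since Muc2 and Clca1 did not reach the filter, and 4 of the 5 were lower. The 7 goblet markers were at 369 to 716 summed FPKM with arachidonic acid and 1608 to 2032 with vehicle. Paneth markers were lower for 5 of 7, at 451 to 993 summed FPKM with arachidonic acid and 1945 to 2905 with vehicle. Of 11 enterocyte markers, 2 were higher and 4 lower, or 18.2% and 36.4%, against 20.8% and 19.4% of all tested genes. The count of lower ones was 7 without arachidonic acid replicate 1, where 32.4% of all tested genes were lower, and 1 without any other single library, where 9.63% to 11.5% were. Their summed FPKM were 6106, 2662 and 2194 with arachidonic acid and 2941, 3707 and 3116 with vehicle, but Fabp1, a fatty acid carrier that was higher in every treated library, made up 4094, 1984 and 1617 FPKM of the treated sums. Without Fabp1, an alternative chosen after seeing the data, the sums were 2012, 678 and 577 FPKM with arachidonic acid and 2628, 3295 and 2777 FPKM with vehicle, so all treated libraries were below all vehicle libraries. Tuft markers were at 3.43 to 9.83 summed FPKM with arachidonic acid and 3.05 to 4.47 with vehicle. Of the 8, 2 were tested, both through the treated libraries only, and none was called. Avil made up 0.867, 6.01 and 3.82 FPKM of the treated sums. By mean Avil, Pou2f3, Hpgds and Ltc4s were higher with arachidonic acid, and Dclk1, Trpm5, Rgs13 and Alox5ap lower. The part of cell type make-up in the transferase values was not tested.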

How the data were processed

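RNA sequencing of 6 libraries, 3 with arachidonic acid and 3 with vehicle, was analysed from FPKM values that the authors deposited, 1 file per library. The labels name no unit, and FPKM was inferred from the values. The submitters' processing notes name featureCounts 1.5.0-p3, HISAT2 2.0.5 and StringTie 1.3.3b without roles. The sources used here do not give build, annotation or strand setting. Overlapping and antisense genes are uncertain, such as Gsto1 with Cfap43 and Gsta3 with Gm28836.

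FPKM multiplied by the mean transcript length in GENCODE M21 gave fragment numbers and so the depth, since in each library 96.3% to 96.7% of values under 100 fragments were within 0.1 of a whole number. Libraries of a group differed by more than counting error. Nothing says whether they came from separate cultures, so p-values speak only to the spread among these libraries, and that spread may be technical.

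Genes whose mean reached 1 FPKM were tested with limma 3.58.1 in R 4.3.3 on log2(FPKM + 1) with a trend between variance and mean. Fold changes on this scale understate the ratio of low values. The test was tried on simulated data in which both groups had a spread taken from the vehicle libraries. That trial does not speak to the spread of the arachidonic acid libraries, among which replicate 1 stood apart. Alternatives were limma-voom on the recovered fragments, quantile normalization, median-of-ratios scaling, TPM rescaling, a minimum of 5 FPKM, no filter, a pseudocount of 0.1, a replicate block and leaving out each library. Leaving out both libraries numbered 1 and summing 4 alpha copies were chosen after seeing the data. The members and lists were chosen with earlier results of these data known, so no p-value is adjusted over a list alone. Named genes are all members, up to 4 of each other list with the smallest p, and the 3 nearest profiles.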

Additional observations from a re-analysis of the deposited data

How the results depend on the processing

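Of the 10 members, 9 were called higher by limma in all 15 other settings, and their log2 fold changes kept their sign. The number called lower was 0 with all libraries, 1 with quantile normalization and 0 to 1 with 1 library left out, the gene being Gstt1. Over all tested genes, leaving out 1 library gave 1712 to 3554 genes higher and 1245 to 4192 lower, against 2690 and 2502 with all 6. Without both libraries numbered 1, 3844 genes were lower. With no filter on low values 2552 were higher and 2089 lower, and the adjusted p of Gstm5, Gstp2, Gstt3, Gstz1 and Mgst2 then missed the threshold (0.054, 0.11, 0.067, 0.059 and 0.092). Without 1 library, the adjusted p of Gstt3, Mgst2 and Gstp2 reached 0.096, 0.11 and 0.15. Gstm7 changed sign, to -0.022 with quantile normalization and to between -0.065 and 0.051 with 1 library left out. The cause was not tested. The groups share replicate numbers, but nothing says that these pair the cultures, and deviations from the group means of same-numbered libraries correlated across genes at -0.0811, 0.210 and -0.0623. With the replicate block 2263 genes were higher and 1998 lower, and 9 members were higher. At these depths the lowest member count was 174 fragments, so counting error limits Gstp1 more than the other members.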

Other observations

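Ptges, the MAPEG enzyme that makes prostaglandin E2 from a product of arachidonic acid with glutathione as cofactor, split the treated libraries. It was at 0.413, 23.8 and 16.0 FPKM in arachidonic acid replicates 1, 2 and 3 and at 0.120, 0.0410 and 0.0194 FPKM in vehicle replicates 1, 2 and 3. Replicate 1 was thus close to the vehicle libraries, at a position of 0.018 of the way to the other treated libraries, where the 9 members that rose lay at 0.40 or beyond. Among the 22 transferase and MAPEG family genes called, members included, 12 had replicate 1 at a position under 0.5. It passed the filter only through the treated libraries, and its log2 fold change was 2.99 (SE 1.003, adjusted p = 0.052) in limma. The value was 5.23 with a pseudocount of 0.1 (adjusted p = 0.025), 3.28 with TPM rescaling (0.047) and 6.37 with limma-voom (0.27), so both the size and the call depend on the processing. Without replicate 1, the library for which it was picked, the log2 fold change was 4.28. Abcg2, an apical exporter, split the same way in the other direction, at 38.6, 13.4 and 14.1 FPKM with arachidonic acid and at 35.4, 39.7 and 45.2 FPKM with vehicle. Its log2 fold change was -0.997 (adjusted p = 0.075) with all libraries and -1.47 without replicate 1, also the library for which it was picked. Mgst2, a microsomal transferase, lay at a position of 0.12 in replicate 1, with 145, 270.2 and 308 FPKM with arachidonic acid and 128, 129 and 118 FPKM with vehicle. These 3 genes were singled out after their values were seen.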
